A study of Mus musculus with 27 samples.

Results

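The genes described here are 7 genes that lung interstitial macrophages and monocytes are known to express: C1qa, C1qb, C1qc, F13a1, Cx3cr1, Ms4a7 and Plac8. They were chosen by name, with earlier results of these data known. Each has a single probe set, so they are 7 of the 20239 named genes measured. RNA from the right lung of 27 female mice aged 11 weeks was hybridised to Mouse Gene 1.0 ST arrays, with 3 mice for each of 9 inbred strains. The strains differ in spontaneous lung adenoma: KK/HlJ and MRL/MpJ have decreased severity and frequency, A/J, C57BL/6J and DBA/2J have increased severity and frequency, and C57L/J, C3H/HeJ, BALB/cJ and 129S1/SvlmJ have increased severity with decreased frequency. The labels give no transgene and no treatment for any of these mice. They do not say whether mice of a strain came from separate litters or cages, so the p-values of the strain comparisons measure the spread between these mice. The p-values of adenoma class and of correlations rest on strain means.

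Interstitial macrophages live in the lung tissue around airways and vessels, and they are replenished from blood monocytes. Complement C1q, the recognition part of the first complement component, is built from chains encoded by C1qa, C1qb and C1qc, and macrophages are its main source. F13a1 encodes the A subunit of coagulation factor XIII, which crosslinks fibrin and is carried by platelets, monocytes and some macrophages. Cx3cr1 encodes the receptor for the chemokine Cx3cl1 (fractalkine) and is high on patrolling monocytes and on some NK cells. Ms4a7 encodes a membrane protein of the Ms4a family found in macrophages. Plac8 encodes a small cysteine-rich protein found in monocytes, neutrophils, NK cells and plasmacytoid dendritic cells, so it is not particular to the macrophage lineage.

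The C1q genes lie side by side on chromosome 4 of assembly GRCm38.p6, in the order C1qb (136880126 to 136886200), C1qc (136889801 to 136892936) and C1qa (136895916 to 136898844). They span 18719 bases, with 3600 bases between C1qb and C1qc, 2979 bases between C1qc and C1qa and no other annotated gene inside. F13a1 is on chromosome 13 (36867178 to 37050244), Cx3cr1 on chromosome 9 (120048683 to 120068296), Ms4a7 on chromosome 19 (11321039 to 11336146) and Plac8 on chromosome 5 (100551589 to 100572253). RefSeq promoter windows of this assembly, from 250 bases before to 50 after a start site, were matched by symbol for 6 of the 7 genes and not for C1qa. The sequences below are those of the neighbouring C1qb and C1qc, whose signals varied together, and of F13a1 and Plac8, which were both highest in KK/HlJ. All 4 are on the minus strand and are written 5′ to 3′, at chr4:136886151-136886450, chr4:136892865-136893164, chr13:37050195-37050494 and chr5:100572156-100572455. Capitals mark GAGGAA (or TTCCTC, the same letters on the other strand), the core of a PU.1-type site, and in C1qb also TGCTGA, a Maf-type site.
C1qb: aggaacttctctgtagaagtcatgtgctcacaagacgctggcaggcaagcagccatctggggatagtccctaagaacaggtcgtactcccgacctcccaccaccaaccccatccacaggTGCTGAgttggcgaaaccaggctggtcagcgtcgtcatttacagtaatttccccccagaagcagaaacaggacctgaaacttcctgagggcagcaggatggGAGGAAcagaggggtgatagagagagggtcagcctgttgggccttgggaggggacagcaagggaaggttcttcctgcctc
C1qc: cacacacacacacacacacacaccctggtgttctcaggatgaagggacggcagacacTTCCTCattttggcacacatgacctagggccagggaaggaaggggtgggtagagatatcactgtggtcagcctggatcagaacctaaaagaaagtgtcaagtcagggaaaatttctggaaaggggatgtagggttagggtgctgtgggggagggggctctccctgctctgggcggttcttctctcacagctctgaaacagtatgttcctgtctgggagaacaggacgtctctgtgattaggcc
F13a1: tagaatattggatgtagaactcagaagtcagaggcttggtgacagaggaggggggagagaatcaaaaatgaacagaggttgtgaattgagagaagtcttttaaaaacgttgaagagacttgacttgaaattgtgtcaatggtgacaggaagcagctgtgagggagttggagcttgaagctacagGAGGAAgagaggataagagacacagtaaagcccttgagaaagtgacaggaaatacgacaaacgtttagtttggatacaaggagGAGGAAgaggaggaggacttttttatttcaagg
Plac8: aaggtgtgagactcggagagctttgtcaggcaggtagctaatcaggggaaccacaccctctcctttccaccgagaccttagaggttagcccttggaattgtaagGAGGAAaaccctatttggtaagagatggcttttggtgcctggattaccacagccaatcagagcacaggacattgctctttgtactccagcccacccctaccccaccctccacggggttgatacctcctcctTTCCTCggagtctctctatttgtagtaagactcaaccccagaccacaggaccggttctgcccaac

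Searched on both strands, GAGGAA was present in a window of 5 of the 6 matched genes (all but Cx3cr1) and in 28.3% of the 32851 RefSeq promoter windows. TGCTGA was present in 1 of the 6, C1qb, and in 19.5% of all windows, and its match does not overlap the GAGGAA match. The TATA box letters TATAAA were in 0 of the 6 and in 13.6% of all windows. F13a1, Ms4a7 and Plac8 each have a second RefSeq window, and each gene was counted by its most upstream window only. These are matches of letters and not binding sites.

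The arrays carried the signal of female lung. The surfactant gene Sftpc, which marks alveolar type II cells, had strain means from 13.07 to 13.31 on the log2 scale, Xist, expressed from the inactive X, from 10.01 to 10.60, and the Y-linked Uty, Kdm5d and Eif2s3y lay between 2.50 and 3.56. Over all genes, 26 of the 27 arrays correlated best with another mouse of the same strain. The second mouse of C3H/HeJ stood apart in its content of other tissue: the median of 6 skeletal muscle genes was 3.88 log2 units above its mean over the 27 arrays, against -0.44 to 0.08 on the other 26 arrays, and that of 5 fat cell genes was 2.11 above, against -0.79 to 1.26. That mouse also had the highest C1qa, C1qb and C1qc signal of C3H/HeJ, so the C1q results are given with and without it. Run numbers follow the strain order of the labels except for the third MRL/MpJ mouse, so run order and strain cannot be told apart.

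Of the 7 genes, 5 differed among the 9 strains in the moderated F test of limma at an adjusted p under 0.05, against 28.9% of all genes tested. The genes were chosen with earlier results known and the C1q chains vary together, so such counts describe these 7 genes only. Plac8 had the widest range of strain means, 1.37 log2 units or 2.59-fold (adjusted p = 2.78e-07). F13a1 ranged over 0.95 log2 units (1.94-fold, adjusted p = 0.000913) and Cx3cr1 over 0.75 (1.68-fold, adjusted p = 0.000539). The ranges of C1qb, 0.54 (adjusted p = 0.0244), and of Ms4a7, 0.52 (adjusted p = 0.0129), were smaller but passed. C1qa, with a range of 0.61, and C1qc, with 0.60, did not pass, at adjusted p = 0.154 and 0.0556. The call for C1qb was lost without the first MRL/MpJ mouse (adjusted p = 0.0529) and that for Ms4a7 without the second 129S1/SvlmJ mouse (adjusted p = 0.0585).

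**Figure D1:**
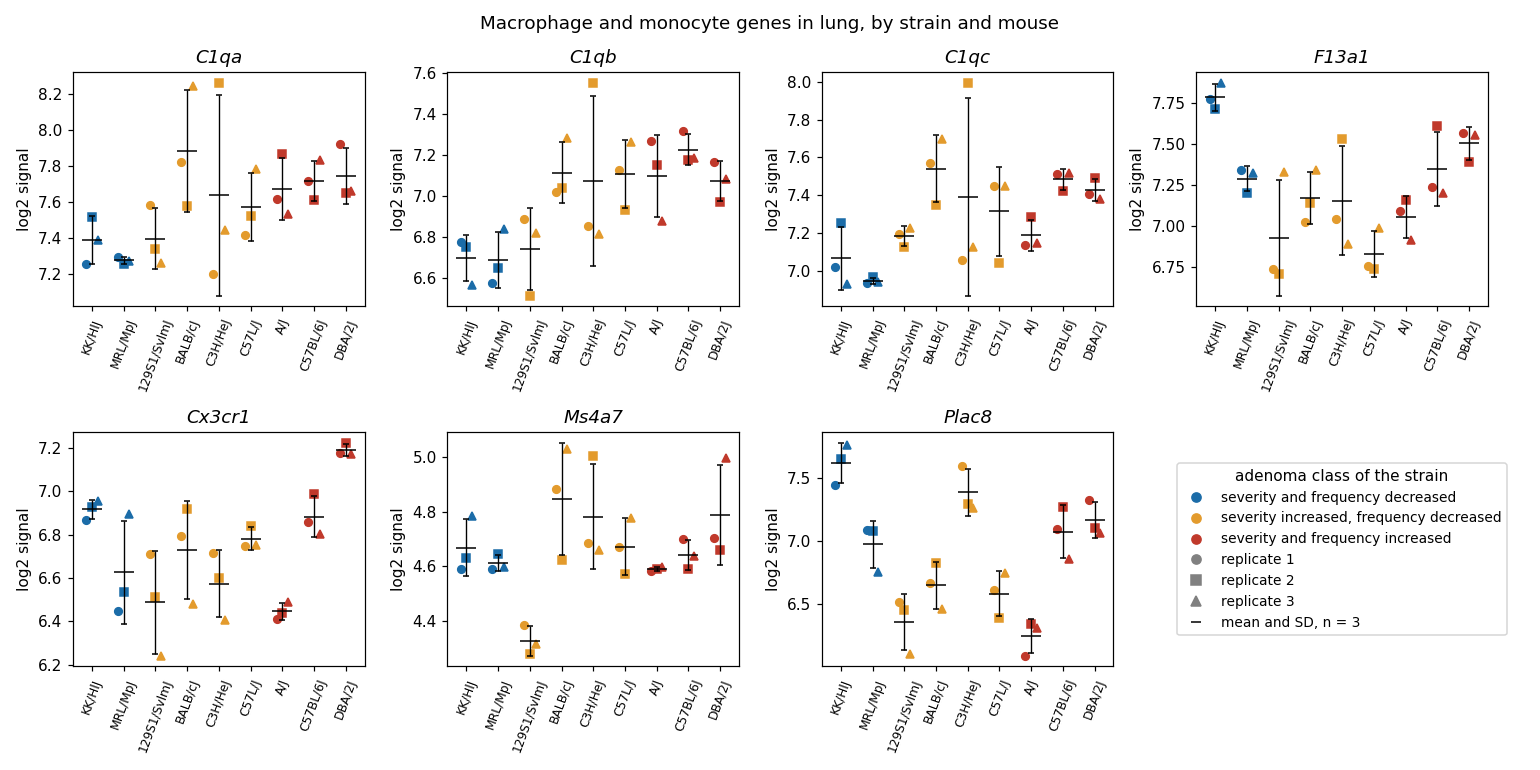
Log2 signal of each of the 7 genes (y axis, 1 panel per gene) in every mouse, by strain on the x axis, with colours for the adenoma class of the strain, marker shapes for replicates, and the mean and SD of 3 mice. The 3 KK/HlJ mice were above all others in F13a1 and the 3 DBA/2J mice in Cx3cr1, and the 3 129S1/SvlmJ mice were below all others in Ms4a7.

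When each strain was set against the mean of the other 8, the 7 genes gave 12 calls in 63 tests, 4 higher and 8 lower, against 7.54% of all gene and strain tests. In 3 of these the strain's mice did not overlap with the other 24, which was so in 1.00% of all gene and strain tests. Of the 12 calls, 7 kept an adjusted p under 0.05 in each fit that left out 1 of the 27 arrays and under each of the 8 other settings: Plac8 in A/J, 129S1/SvlmJ, C3H/HeJ and KK/HlJ, F13a1 in KK/HlJ, Cx3cr1 in DBA/2J and Ms4a7 in 129S1/SvlmJ. In whole lung RNA, fewer cells of a type and less RNA per cell cannot be told apart.

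**Figure D2:**
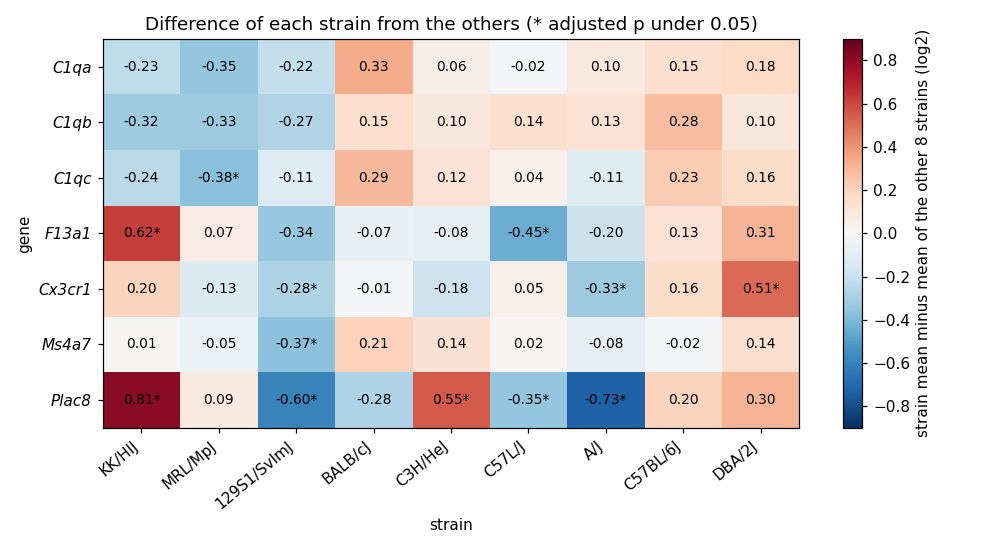
Difference of each strain mean (x axis) from the mean of the other 8 strains in log2 units (colour), for each of the 7 genes (y axis), with an asterisk where the adjusted p was under 0.05. Plac8 has 5 asterisks and C1qa and C1qb have none.

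The C1q chains were lowest in MRL/MpJ and KK/HlJ and differed by at most 1.52-fold between any 2 strains. In MRL/MpJ, C1qa read 7.30, 7.26 and 7.27 in the 3 mice and in KK/HlJ 7.25, 7.52 and 7.39. BALB/cJ had the highest mean of C1qa, with 7.82, 7.58 and 8.25, and the 3 mice of BALB/cJ all lay above the 6 mice of MRL/MpJ and KK/HlJ. C3H/HeJ spread most, with 7.20, 8.27 and 7.45, and its second mouse was the highest of the 27. The strain means of C1qa rose from MRL/MpJ (7.28 ± 0.02, SD, n = 3) through KK/HlJ (7.39 ± 0.13), 129S1/SvlmJ (7.40 ± 0.17), C57L/J (7.57 ± 0.19), C3H/HeJ (7.64 ± 0.56), A/J (7.68 ± 0.17), C57BL/6J (7.72 ± 0.11) and DBA/2J (7.75 ± 0.15) to BALB/cJ (7.88 ± 0.34). No pair of strains passed the test for C1qa, even with no minimum difference.

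C1qb read 6.58, 6.65 and 6.84 in MRL/MpJ, 6.77, 6.75 and 6.57 in KK/HlJ and 6.89, 6.52 and 6.82 in 129S1/SvlmJ. In C57BL/6J, the strain with the highest mean, it read 7.31, 7.18 and 7.19, above every mouse of those 3 strains. The 3 low strains had means of 6.69 ± 0.14, 6.70 ± 0.11 and 6.74 ± 0.20 (SD, n = 3), and the other 6 strains lay close together from 7.07 in DBA/2J and C3H/HeJ to 7.23 ± 0.08 in C57BL/6J. Without a minimum difference, 3 of the 36 strain pairs passed for C1qb, all between C57BL/6J and one of the 3 low strains; C57BL/6J exceeded MRL/MpJ by 0.54 (SE 0.15, adjusted p = 0.0186). C1qc followed a like order, from 6.93, 6.97 and 6.94 in MRL/MpJ to 7.57, 7.35 and 7.70 in BALB/cJ. These groups of mice did not overlap, and the difference of BALB/cJ from MRL/MpJ was 0.60 (SE 0.16, adjusted p = 0.0260). KK/HlJ (7.07 ± 0.17) and 129S1/SvlmJ (7.18 ± 0.05) came next to MRL/MpJ (6.95 ± 0.02). Against the other 8 strains, only MRL/MpJ passed for C1qc, lower by 0.38 (SE 0.12, adjusted p = 0.0423, n = 3), and this call was lost in 12 of the 27 fits without 1 array.

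Leaving out the second C3H/HeJ mouse changed the picture of the C1q chains. Then all 7 genes passed the F test, with adjusted p = 0.0117 for C1qa, 0.00159 for C1qb and 0.000599 for C1qc, while 29.6% of all genes passed. The calls against the other strains rose from 12 to 19. C1qa became higher in BALB/cJ and lower in MRL/MpJ, C1qb higher in C57BL/6J and lower in KK/HlJ and MRL/MpJ, C1qc higher in BALB/cJ and C57BL/6J, and F13a1 lower in 129S1/SvlmJ. The call of C1qc in MRL/MpJ was kept (adjusted p = 0.00463), and that of Cx3cr1 in 129S1/SvlmJ was lost. The C3H/HeJ means without it were 7.32 for C1qa, 6.83 for C1qb and 7.09 for C1qc, near those of the low strains. On that array C1qa was 8.27 against 7.20 and 7.45, C1qb 7.55 against 6.85 and 6.81, and C1qc 8.0 against 7.06 and 7.12 in the other C3H/HeJ mice. The median of 17 other interstitial macrophage markers was 0.09 above its mean over the arrays in that mouse, against 0.03 and 0.08 in the other C3H/HeJ mice. The part of its muscle and fat signal in the C1q values was not tested.

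**Figure D3:**
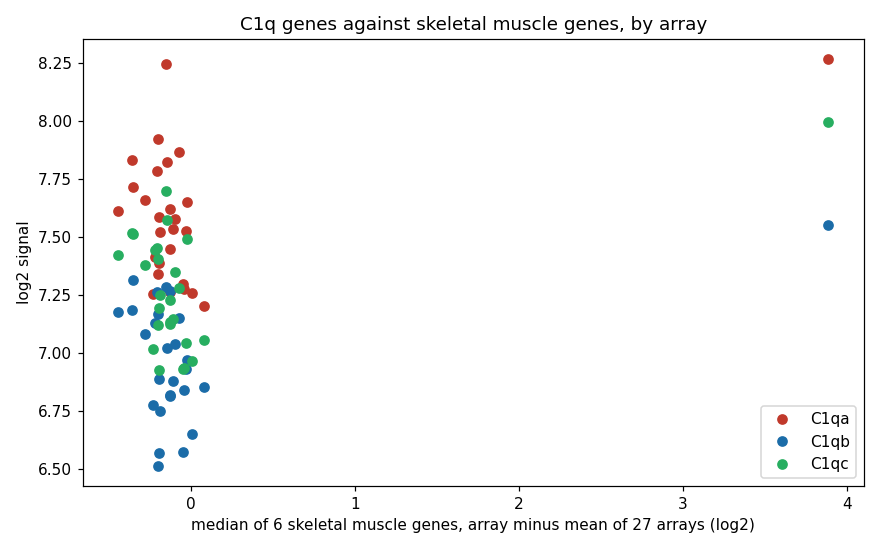
Log2 signal of C1qa, C1qb and C1qc (y axis) against the median of 6 skeletal muscle genes on the same array relative to the mean of the 27 arrays (x axis, log2), 1 point per gene and array. The second C3H/HeJ mouse lies at 3.88 on the x axis, and the other 26 arrays lie between -0.44 and 0.08.

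The C1q chains varied together over the strains. Over the 9 strain means C1qa and C1qc had Pearson r = 0.91 (exact permutation p = 0.000595, adjusted over 21 pairs of the 7 genes p = 0.0125) and Spearman rho = 0.93 (exact permutation p = 0.000750, adjusted p = 0.0157). For C1qa and C1qb r was 0.89 (exact permutation p = 0.00318, adjusted p = 0.0223) and rho 0.75 (exact permutation p = 0.0255, adjusted p = 0.134). For C1qb and C1qc r was 0.85 (exact permutation p = 0.00284, adjusted p = 0.0223) and rho 0.83 (exact permutation p = 0.00827, adjusted p = 0.0868). Without KK/HlJ and MRL/MpJ, the strains farthest from the median, r fell to 0.79, 0.75 and 0.63. Without the second C3H/HeJ mouse r over the 9 strain means was 0.92, 0.88 and 0.85, in the same order of pairs, and all 3 still passed by r. Deviations of the 27 mice from their strain means also went together, with r of 0.80, 0.73 and 0.78 as a description, and 0.54, 0.46 and 0.50 without the second C3H/HeJ mouse. The only other pair of the 21 to pass by r was F13a1 with Plac8. With Plac8, C1qa, C1qb and C1qc had r of -0.14, -0.17 and -0.02, and without KK/HlJ and MRL/MpJ 0.33, 0.41 and 0.65, so the sign of these values rests on those strains.

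Over the 27 arrays the genes most like C1qa were C1qc (r = 0.85), C1qb (0.81) and Suclg1 (0.76), and those most like C1qc were C1qa (0.85), C1qb (0.82) and Suclg1 (0.75). For C1qb they were Dhrs7 (0.87), C1qc (0.82) and Mrpl9 (0.81). The arrays of a strain share a genotype, so these values describe likeness only. Without the second C3H/HeJ mouse the r of C1qa with C1qc was 0.81 and those with Suclg1 were 0.67 for C1qa and 0.61 for C1qc.

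C1q binds C1r and C1s, and the active complex cleaves C4 and C2 under the restraint of the inhibitor Serping1. Of 10 measured genes for these partners and for proteins reported to bind C1q, 7 passed the F test, against 28.9% of all genes. In KK/HlJ, where the C1q means were low, 4 of the 10 were higher than in the other strains and 0 lower, against 4.55% of all genes higher and 2.83% lower: C4b by 0.72 (SE 0.15, adjusted p = 0.00273), C1s1 by 0.43 (SE 0.08, adjusted p = 0.00139), C2 by 0.39 (SE 0.09, adjusted p = 0.00613) and Serping1 by 0.22 (SE 0.06, adjusted p = 0.0129). In MRL/MpJ, where the C1q means were also low, 4 of the 10 were lower and 0 higher, against 5.61% of all genes lower and 6.83% higher. C4b was lower by 1.37 (SE 0.15, adjusted p = 1.75e-06), C1s1 by 0.30 (SE 0.08, adjusted p = 0.0227) and Serping1 by 0.23 (SE 0.06, adjusted p = 0.00805), and the other was C1qbp, which encodes a mainly mitochondrial protein reported to bind C1q. The 2 strains with the lowest C1q signal thus stood on opposite sides in the genes of C4 and C1s. The MRL/MpJ drop was not particular to that strain. In C3H/HeJ 3 of the 10 were lower and 1 higher, where 7.54% of all gene and strain tests were called, both directions together. C4b was lower there by 1.32 (SE 0.15, adjusted p = 2.82e-06), and C1s1 and Serping1 were lower too. C2 was lowest in C57L/J, at 5.33 ± 0.13 (SD, n = 3) against 6.85 ± 0.25 in KK/HlJ.

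Other markers of interstitial macrophages differed in both directions in MRL/MpJ and KK/HlJ. In 129S1/SvlmJ 0 were higher and 3 lower, against 6.43% of all genes lower. Of 17 measured, 13 passed the F test, against 28.9% of all genes. In MRL/MpJ 4 were higher and 4 lower (6.83% and 5.61% of all genes), with a median difference from the other strains of -0.03 (all genes 0.04). In KK/HlJ 2 were higher and 1 lower (4.55% and 2.83% of all genes), with a median of 0.06 (all genes 0.01). In BALB/cJ, which had the highest C1qa and C1qc means, 0 were higher and 4 lower (3.01% of all genes lower). The median there was -0.09 (all genes 0.01). The phagocytic receptor gene Mertk was lowest in C57L/J (8.31 ± 0.20) and highest in A/J (9.14 ± 0.06), and Cd68, which encodes a lysosomal protein of macrophages, was highest in KK/HlJ (9.59 ± 0.06) and lowest in C57L/J (8.64 ± 0.12). Aif1 ran from 5.07 ± 0.17 in 129S1/SvlmJ to 6.05 ± 0.10 in C3H/HeJ, and Mrc1, the mannose receptor gene, from 8.50 ± 0.28 in BALB/cJ to 9.29 ± 0.18 in KK/HlJ. In BALB/cJ, 8 of 12 alveolar macrophage markers were lower and 0 higher, against 3.01% of all genes lower, with a median difference of -0.52. KK/HlJ and MRL/MpJ, both low in C1q, differed in such markers. Chil3 was 1.78 higher in KK/HlJ (SE 0.15, adjusted p = 1.19e-08) and 1.08 lower in MRL/MpJ (SE 0.15, adjusted p = 3.35e-05). Marco and Siglecf were also higher in KK/HlJ, and Krt79 was also lower in MRL/MpJ. The part of alveolar macrophages in the C1q values was not tested.

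F13a1 was highest in KK/HlJ and lowest in C57L/J. The 3 KK/HlJ mice read 7.77, 7.71 and 7.87, above each of the other 24 mice, of which the highest was 7.61 in C57BL/6J. KK/HlJ exceeded the mean of the other strains by 0.62 (SE 0.12, 1.54-fold, adjusted p = 0.000805). The 3 C57L/J mice read 6.76, 6.74 and 6.99 and overlapped with those of 129S1/SvlmJ (6.74, 6.71 and 7.33), A/J and C3H/HeJ. C57L/J was lower than the other strains by 0.45 (SE 0.12, adjusted p = 0.0172), a call lost without its first mouse (adjusted p = 0.133) or its second (adjusted p = 0.103). Between them lay 129S1/SvlmJ (6.93 ± 0.35, SD, n = 3), A/J (7.05 ± 0.13), C3H/HeJ (7.15 ± 0.33), BALB/cJ (7.17 ± 0.16), MRL/MpJ (7.29 ± 0.07), C57BL/6J (7.35 ± 0.23) and DBA/2J (7.50 ± 0.10). The C3H/HeJ mean was 6.97 without its second mouse, below that of A/J.

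Platelet genes were high in KK/HlJ and low in C57L/J and 129S1/SvlmJ, the strains with the highest and the 2 lowest F13a1 means. Of 10 measured, 8 were higher in KK/HlJ and 0 lower, with a median difference from the other strains of 0.67 (4.55% of all genes higher); 7 were lower in C57L/J and 0 higher (median -0.46, 2.94% of all genes lower), and 8 were lower in 129S1/SvlmJ and 0 higher (median -0.59, 6.43% of all genes lower). DBA/2J, second in F13a1, had 4 higher and 0 lower (median 0.33, 2.87% of all genes higher). On single arrays the median of the 10 genes ran from 0.44 to 0.65 above its mean over all arrays in KK/HlJ, and from -0.73 to -0.35 in C57L/J. The platelet tubulin gene Tubb1 was at 6.75 ± 0.16 in C57L/J against 9.11 ± 0.11 in KK/HlJ, and Ppbp, which encodes a platelet chemokine, was at 6.94 ± 0.87 in 129S1/SvlmJ against 10.89 ± 0.24 in KK/HlJ. Itga2b, the platelet integrin gene, was 0.78 higher in KK/HlJ (SE 0.13, adjusted p = 0.000300) and 0.83 lower in C57L/J than in the other strains (SE 0.13, adjusted p = 0.000166). In C3H/HeJ, where F13a1 was not called (-0.08), Itga2b was 0.45 higher (SE 0.13, adjusted p = 0.0413). The platelet median on single C3H/HeJ arrays ran from 0.06 to 0.32. The part of platelet RNA in the F13a1 differences was not tested.

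**Figure D4:**
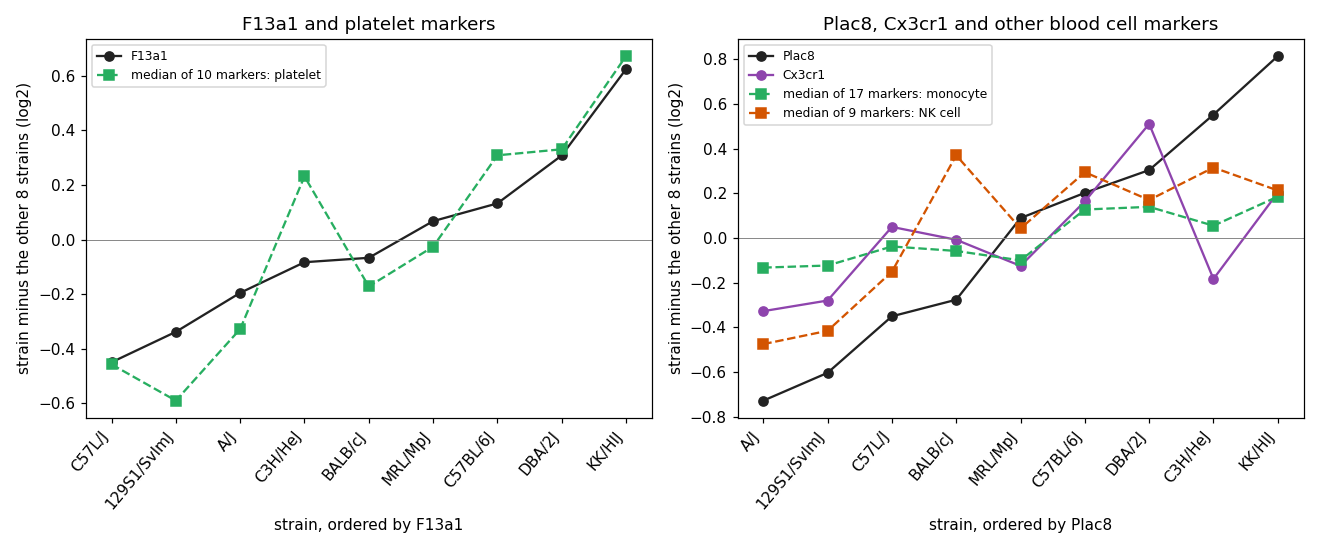
Difference of each strain from the other 8 in log2 units (y axis) for the named genes (solid lines) and for the median of marker lists of other cells (dashed lines), with strains on the x axis in order of the first gene. F13a1 and the median of 10 platelet genes were both highest in KK/HlJ, at 0.62 and 0.67.

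Of 6 measured genes, for partners of factor XIII and for the tissue transglutaminase Tgm2, 1 passed the F test, against 28.9% of all genes. This was Tgm2 itself, from 9.73 ± 0.10 in A/J to 10.22 ± 0.06 in 129S1/SvlmJ. In KK/HlJ, where F13a1 was highest, 2 of the 6 were higher and 0 lower (4.55% of all genes higher). These were F2, by 0.34 (SE 0.10, adjusted p = 0.0353), and Tgm2, by 0.24 (SE 0.06, adjusted p = 0.0140). F13b, the gene of the B subunit, which liver makes, had strain means from 2.73 to 2.93. The genes most like F13a1 over the 27 arrays were Avpr1a (r = 0.80), Milr1 (0.77) and Slc2a3 (0.76).

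Cx3cr1 was highest in DBA/2J. Its 3 mice read 7.18, 7.22 and 7.17, above each of the other 24, of which the highest was 6.99 in C57BL/6J. DBA/2J exceeded the mean of the other strains by 0.51 (SE 0.09, 1.42-fold, adjusted p = 0.000691). A/J was lowest, at 6.41, 6.44 and 6.49, followed by 129S1/SvlmJ at 6.71, 6.51 and 6.24, and these strains overlapped. A/J was lower than the other strains by 0.33 (SE 0.09, adjusted p = 0.0276) and 129S1/SvlmJ by 0.28 (SE 0.09, adjusted p = 0.0477). The A/J call was lost without any 1 of its mice (adjusted p = 0.145, 0.146 and 0.0881), and the 129S1/SvlmJ call in 21 of the 27 fits without 1 array. The other means were 6.57 ± 0.16 (SD, n = 3) in C3H/HeJ, 6.63 ± 0.24 in MRL/MpJ, 6.73 ± 0.23 in BALB/cJ, 6.78 ± 0.05 in C57L/J, 6.88 ± 0.09 in C57BL/6J and 6.92 ± 0.04 in KK/HlJ.

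The ligand gene Cx3cl1 passed the F test (adjusted p = 0.000241) with another order. It was higher in BALB/cJ by 0.37 and in 129S1/SvlmJ by 0.35 (SE 0.07, adjusted p = 0.00226), and lower in KK/HlJ by 0.30 (SE 0.07, adjusted p = 0.00829). In DBA/2J, where the receptor gene was highest, Cx3cl1 differed from the other strains by 0.07 and was not called. Among 17 other monocyte markers in DBA/2J, 4 were higher and 2 lower (2.87% and 1.94% of all genes), and among 9 NK cell markers 2 were higher and 0 lower; Cd300e, a monocyte receptor gene, was 0.94 lower there (SE 0.07, adjusted p = 1.27e-09). The part of these cells in the Cx3cr1 difference was not tested. The genes most like Cx3cr1 were Ctc1 (r = 0.83), Apobec1 (0.79) and Lyrm7 (0.78).

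Ms4a7 was lowest in 129S1/SvlmJ, at 4.39, 4.28 and 4.32, below each of the other 24 mice, of which the lowest was 4.57 in C57L/J. 129S1/SvlmJ was lower than the mean of the other strains by 0.37 (SE 0.08, 1.29-fold, adjusted p = 0.00231). The other 8 strain means lay between 4.59 ± 0.01 (SD, n = 3) in A/J and 4.85 ± 0.21 in BALB/cJ, and no pair among them passed even without a minimum difference. All 6 pairs that passed were with 129S1/SvlmJ, the largest against BALB/cJ at 0.52 (SE 0.10, adjusted p = 0.00200). The signal was low, with 25.2% of all genes below it in mean signal. In 129S1/SvlmJ markers of several leukocytes were also lower: 6 of 11 dendritic cell, 6 of 9 NK cell, 6 of 9 B cell and 4 of 11 neutrophil markers, against 3 of the 17 other interstitial macrophage markers and 6.43% of all genes. Their part in the Ms4a7 value was not tested.

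Of 15 measured genes of the Ms4a family, 6 passed the F test, against 28.9% of all genes, and their lowest strains differed. Ms4a4d was highest in 129S1/SvlmJ (8.75 ± 0.07) and lowest in BALB/cJ (7.52 ± 0.13), the reverse of Ms4a7. Ms4a6d ran from 6.54 ± 0.04 in MRL/MpJ to 7.48 ± 0.03 in A/J, Ms4a8a was highest in KK/HlJ (8.46 ± 0.11) and lowest in DBA/2J (7.38 ± 0.05), and the B cell gene Ms4a1 from 6.46 ± 0.29 in 129S1/SvlmJ to 7.55 ± 0.24 in C57BL/6J. The genes most like Ms4a7 were Bin1 (r = 0.76), Gm5785 (0.75) and Il2rb (0.75).

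Plac8 differed most between strains. It was lowest in A/J, at 6.09, 6.34 and 6.31, and in 129S1/SvlmJ, at 6.51, 6.46 and 6.11, and highest in KK/HlJ, at 7.44, 7.66 and 7.76, and C3H/HeJ, at 7.60, 7.29 and 7.27. All 6 mice of the high strains lay above all 6 of the low strains, and within each of these sets the strains overlapped. The strain means rose from A/J (6.25 ± 0.14, SD, n = 3) through 129S1/SvlmJ (6.36 ± 0.22), C57L/J (6.58 ± 0.18), BALB/cJ (6.65 ± 0.18), MRL/MpJ (6.98 ± 0.19), C57BL/6J (7.08 ± 0.21), DBA/2J (7.17 ± 0.14) and C3H/HeJ (7.39 ± 0.19) to KK/HlJ (7.62 ± 0.16).

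KK/HlJ exceeded the mean of the other strains by 0.81 (SE 0.10, 1.76-fold, adjusted p = 9.63e-06) and C3H/HeJ by 0.55 (SE 0.10, adjusted p = 0.00161). A/J was lower by 0.73 (SE 0.10, 1.66-fold, adjusted p = 6.48e-05), 129S1/SvlmJ by 0.60 (adjusted p = 0.000453) and C57L/J by 0.35 (adjusted p = 0.0432), the last lost in 15 of the 27 fits without 1 array. Among the 36 strain pairs, Plac8 was the only one of the 7 genes called at an adjusted p under 0.05 and a difference of at least 1 log2 unit, in 5 pairs, against 0.655% of all gene and pair tests and 4.27% of genes called in at least 1 pair. KK/HlJ exceeded A/J by 1.37 (2.59-fold, adjusted p = 3.48e-07), 129S1/SvlmJ by 1.26 (adjusted p = 1.21e-06) and C57L/J by 1.04 (adjusted p = 1.82e-05). C3H/HeJ exceeded A/J by 1.14 (adjusted p = 9.57e-06) and 129S1/SvlmJ by 1.03 (adjusted p = 2.71e-05). Without the minimum, 48 pair tests of the 7 genes passed, against 7.31% of all, of which 19 were for Plac8, 9 each for F13a1 and Cx3cr1, 6 for Ms4a7, 3 for C1qb and 2 for C1qc. Neighbours in the order of levels never passed: 0 of 56 steps between adjacent strains in the 7 genes, although some strains further apart did.

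Other monocyte markers went only partly with Plac8 over the strains. In KK/HlJ 7 of 17 were higher and 0 lower (4.55% and 2.83% of all genes). In A/J 5 were lower and 0 higher, against 3.75% of all genes lower. In C3H/HeJ 3 were higher and 1 lower (4.18% of all genes higher), and in 129S1/SvlmJ 1 higher and 3 lower (6.43% of all genes lower). In C57L/J, where Plac8 was also low, 3 were higher and 2 lower (2.94% of all genes lower). Over all genes and strains, 7.54% of tests were called, both directions together. Adgre4, which encodes an adhesion receptor of monocytes, was 0.70 higher in KK/HlJ (SE 0.10, adjusted p = 6.87e-05) and 0.81 lower in A/J (SE 0.10, adjusted p = 1.73e-05). Adgre4 was not called in C3H/HeJ, 129S1/SvlmJ or C57L/J, and it was 0.37 higher in DBA/2J (adjusted p = 0.0389), where Plac8 was not called. Treml4, a receptor gene of patrolling monocytes, was higher by 0.62 in KK/HlJ (SE 0.10, adjusted p = 0.000148) and by 0.57 in C3H/HeJ (adjusted p = 0.000676). It was lower by 0.59 in 129S1/SvlmJ (adjusted p = 0.000349) and by 0.73 in C57L/J (adjusted p = 2.38e-05). In A/J, lowest in Plac8, Treml4 was not called (-0.11, adjusted p = 0.657). F10, which encodes coagulation factor X, went another way: it was 0.91 higher in KK/HlJ (SE 0.07, adjusted p = 5.68e-09) but also 0.79 higher in 129S1/SvlmJ (SE 0.07, adjusted p = 8.29e-08). The median of the 17 markers on single arrays ran from 0.16 to 0.19 in KK/HlJ and from -0.17 to -0.10 in A/J, relative to its mean over all arrays.

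Some markers of other cells that express Plac8 were also lower in A/J and 129S1/SvlmJ, the strains lowest in Plac8. In A/J 5 of 9 NK cell markers (median difference -0.48) and 6 of 11 neutrophil markers (median -0.53) were lower, against 3.75% of all genes. In 129S1/SvlmJ 6 of 9 (median -0.42) and 4 of 11 (median -0.37) were lower, against 6.43% of all genes. The granzyme gene Gzma was 1.81 lower in A/J than in the other strains (SE 0.16, adjusted p = 7.54e-08), and Ncr1, an NK cell receptor gene, 0.97 lower (SE 0.14, adjusted p = 7.79e-05). In C3H/HeJ 3 NK cell markers were higher and 0 lower, against 4.18% of all genes higher. In KK/HlJ, the strain highest in Plac8, 2 NK cell markers were higher and 1 lower, and 0 of 11 neutrophil markers were higher and 1 lower. The shares of all genes in KK/HlJ were 4.55% higher and 2.83% lower. The part of NK cells, neutrophils and monocytes in the Plac8 differences was not tested. The genes most like Plac8 over the 27 arrays were Rnf213 (r = 0.86), F2rl2 (0.86) and Plcg2 (0.84).

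F13a1 and Plac8 had Pearson r = 0.80 over the 9 strain means (exact permutation p = 0.00882, adjusted p = 0.0463) and Spearman rho = 0.77 (exact permutation p = 0.0214, adjusted p = 0.134). Without C57L/J and KK/HlJ r was 0.70. When the second C3H/HeJ mouse was left out, r was 0.67 and no longer passed (exact permutation p = 0.0483, adjusted p = 0.203). Deviations of the 27 mice from their strain means gave r = -0.13 as a description.

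The labels class the strains by adenoma severity and frequency, and the strain, not the mouse, is the unit of that comparison. For severity, 7 strains are increased and 2 decreased, KK/HlJ and MRL/MpJ. The strain mean of C1qa averaged 7.66 ± 0.15 (SD, n = 7) in the increased and 7.33 ± 0.08 (SD, n = 2) in the decreased strains, a difference of 0.33 (SE 0.11). For C1qb the values were 7.06 ± 0.15 and 6.69 ± 0.01, a difference of 0.37 (SE 0.10), and for C1qc 7.36 ± 0.14 and 7.01 ± 0.09, a difference of 0.36 (SE 0.10). For these 3 genes both decreased strains lay below all 7 increased strains, as they did for 1.89% of all genes, although 129S1/SvlmJ lay close to KK/HlJ in C1qa and C1qb. Without the second C3H/HeJ mouse the differences were 0.28 (SE 0.13), 0.33 (SE 0.12) and 0.31 (SE 0.12). The order then held for C1qb and C1qc (1.87% of all genes) but not for C1qa, since C3H/HeJ, at 7.32, fell below KK/HlJ.

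None of the 7 genes passed the severity test of limma after adjustment over all genes, where 0.00988% of genes, 2 in number, passed. The adjusted p was 0.622 for C1qa and 0.580 for C1qb and C1qc. At an unadjusted p under 0.05 in limma's moderated test, 4 of the 7 genes passed against 7.04% of all genes: C1qa, C1qb, C1qc and F13a1, of which F13a1 was lower in the increased strains by 0.40 (SE 0.18). In the exact 2-sided permutation test of the class labels, the C1q genes each gave p = 0.0278, the smallest that 36 splits allow, and F13a1 gave 0.111. Without the second C3H/HeJ mouse the exact permutation p was 0.139 for C1qa, 0.0278 for C1qb and 0.0556 for C1qc, and 3 of the 7 genes passed unadjusted, C1qb, C1qc and F13a1, against 7.59% of all genes. For C1qa it was also 0.0556 without the first KK/HlJ, the first 129S1/SvlmJ or the second BALB/cJ mouse. For C1qb it was 0.0556 without the third KK/HlJ or the first MRL/MpJ mouse and 0.0833 without the first 129S1/SvlmJ mouse. Since the C1q chains vary together, these are not separate results. Plac8 was 0.52 lower in the increased strains (SE 0.30, exact permutation p = 0.222), and Cx3cr1 and Ms4a7 differed by -0.04 and 0.02 (exact permutation p = 0.861 and 0.889). The medians of the severity difference were -0.06 over the 17 other interstitial macrophage markers, -0.10 over the 17 other monocyte markers and -0.03 over all genes, with 0 of either list called. Platelet genes had a median of -0.34 and B cell genes one of 0.29, also with 0 called. The 5 fat cell genes had a median of 0.59 and the 6 muscle genes one of 0.14, with 0 called, and without the second C3H/HeJ mouse these were 0.44 and -0.02. Their part in the C1q differences was not tested.

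For frequency, with 3 increased and 6 decreased strains, 0 of the 7 genes passed after adjustment (0% of all genes) and 0 at an unadjusted p under 0.05 (7.7% of all genes). The differences ran from -0.10 for Plac8 to 0.23 for C1qb (SE 0.12, exact permutation p = 0.143). With that C3H/HeJ mouse left out, the C1qb difference was 0.27 (SE 0.11, exact permutation p = 0.119), and C1qb was then 1 of the 7 to pass unadjusted (6.99% of all genes). Between the 3 strains increased in both classes and the 2 decreased in both, 0 of the 7 passed after adjustment (0% of all genes), and C1qa, C1qb and C1qc passed at an unadjusted p under 0.05 (7.87% of all genes), with differences of 0.38 (SE 0.07), 0.44 (SE 0.08) and 0.36 (SE 0.11). There the permutation test cannot go below p = 0.1, which C1qa and C1qb gave. These comparisons share the decreased strains, so they are not independent of the severity comparison.

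**Figure D5:**
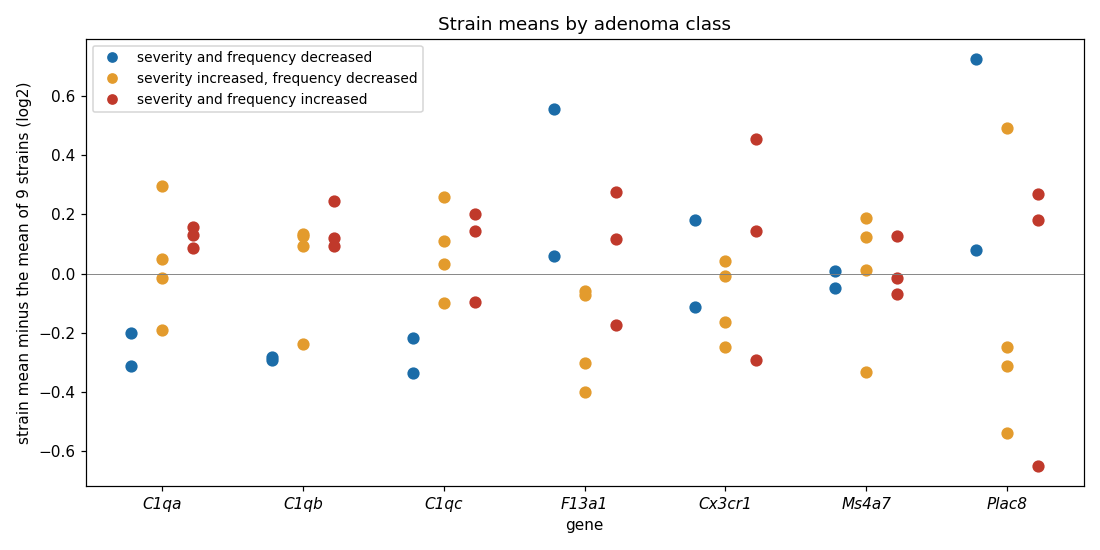
Strain means of the 7 genes (x axis) relative to the mean of the 9 strains in log2 units (y axis), 1 point per strain, coloured by adenoma class. For C1qa, C1qb and C1qc the points of KK/HlJ and MRL/MpJ, over all 27 arrays, are the lowest 2.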

How the data were processed

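The table holds log2 signal per probe set as deposited by the authors; they name affy (no version) in the submitters' processing notes, and how the values were normalized is not given in the sources used. TRIzol and RNeasy columns were used for the RNA, per the labels' protocols. The values (1.78 to 13.35, array medians 6.24 to 6.37) were not rescaled. Of 21225 probe sets, 20239 have a gene symbol and 986, with none, were left out.

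In R 4.3.3, limma 3.58.1 fitted 1 mean per strain to all 27 arrays (lmFit, eBayes), with a moderated F test, contrasts of each strain with the other 8, and 36 strain pairs. P-values were adjusted by Benjamini-Hochberg over all named genes within a contrast, and genes were called at an adjusted p under 0.05. For adenoma class the same fit was made on strain means. Correlations and single genes were tested by exact permutation. The code was tested on simulated data. The members and lists were chosen with earlier results of these data known. Named genes are all members, the 3 others most correlated with each, up to 4 of each list with the smallest F p-value, and genes that check tissue and sex. The precision is limited by 3 arrays per strain. Alternatives covered scaling, dim probe sets, array weights, the variance prior, the adjustment, a replicate block, the minimum difference, the unit of the class test and leaving out arrays or strains.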

Additional observations from a re-analysis of the deposited data

Results flagged for a closer look

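In the 14 groups of 4 to 10 strain means tested with Dixon's test (7 strains of increased severity and 6 of decreased frequency, for each gene), 1 value stood apart. Among the strains of increased severity, the C1qb mean of 129S1/SvlmJ, 6.74, lay below the other 6, which ran from 7.07 to 7.23, and its gap was 0.683 of the group's range. Without the second C3H/HeJ mouse the C3H/HeJ mean was 6.83, the gap was 0.189 of the range, and the value no longer stood apart. Chance gives about 1 such value in 20 groups. With C1qb at 6.89, 6.52 and 6.82 in its 3 mice, the 129S1/SvlmJ mice overlapped with those of KK/HlJ and MRL/MpJ, the strains of decreased severity.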

How the results depend on the processing

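With no minimum difference 48 strain pairs were called for the 7 genes, and with a minimum of 0.5 log2 units 35, against 5 at a minimum of 1. The exact permutation test, unadjusted, gave 3 genes for adenoma severity, against 0 in limma after adjustment. Leaving out 1 array gave 4 to 7 genes passing the F test, 8 to 19 calls of a strain against the others (19 without the second C3H/HeJ mouse, chosen after seeing the data) and 4 to 6 strain pairs. C1qc also passed the F test with median centring (adjusted p = 0.0351), without dim probe sets (0.0440), with an intensity trend and robust prior (0.0467) and with array weights (0.00845), and C1qa with array weights (0.0498). Cx3cr1 in A/J was lost under quantile normalization (adjusted p = 0.0517), and Cx3cr1 in 129S1/SvlmJ under 5 of 8 settings (up to 0.0789). C1qc in MRL/MpJ was lost when p-values were adjusted over all strains together (0.0594). Replicate numbers do not pair the mice: arrays of the same number in different strains had a median correlation of deviations of -0.000128, 24 of 108 pairs were above 0.1, and 11 of 27 arrays were closest to one of their own number. With the replicate number as a block, 5 genes passed the F test, 10 calls of a strain against the others were made and 5 strain pairs were called; C1qc in MRL/MpJ (adjusted p = 0.0510) and Cx3cr1 in 129S1/SvlmJ (0.0518) were lost. Among adenoma differences, those that changed sign when an array or strain was left out ran, for severity, from -0.19 to 0.10 for Cx3cr1 and from -0.0064 to 0.080 for Ms4a7. For frequency they ran from -0.022 to 0.35 for Cx3cr1, from -0.043 to 0.063 for Ms4a7 and from -0.27 to 0.19 for Plac8. For both classes they ran from -0.48 to 0.013 for F13a1, from -0.11 to 0.27 for Cx3cr1 and from -0.023 to 0.075 for Ms4a7. The cause of these changes was not tested. Of the 21 correlations, 3 passed by r under quantile normalization and 3 without the second C3H/HeJ mouse, against 4. Whether sequence differences between strains at the probes move these signals was not tested, and low signal limits Ms4a7.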
